A study of Mus musculus with 7 samples.

Results

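Serpins are protease inhibitors that trap their target: the protease cleaves an exposed loop of the serpin and stays bound to it in an inactive complex. Clade A serpins, among them the mouse Serpina3 genes, are mostly secreted, and clade B serpins lack a classical signal peptide and act largely inside the cell or at its surface. In myeloid cells serpins shield the cell from its own lysosomal and granule proteases and limit proteolysis around it, and several are induced by interferon-gamma or bacterial products. The 8 genes described here are Serpina3f, Serpina3g, Serpina3h, Serpina3n, Serpinb1a, Serpinb2, Serpinb6a and Serpinb9, taken by symbol from the 24084 genes of the deposited tables, which list 42 serpins in all. The set was selected on CPM differences between the groups known from earlier work on the same counts, although not every gene in it differs, so their levels and fold changes below are a description without a test. The Serpina3 genes lie on chromosome 12 beside Dicer1, the gene deleted in the study.

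RNA was sequenced from tumor-associated macrophages, sorted as F4/80+ cells from established subcutaneous Lewis lung carcinomas (LLC, a mouse lung carcinoma line). The Dicer1-deleted group (D-/-, 3 libraries) came from mice with homozygous LysM-Cre and a homozygous Dicerlox/lox allele, and the control group (D+/+, 4 libraries) from mice with homozygous LysM-Cre and Dicer+/+, a line obtained by backcrossing to LysM-Cre. Cre is expressed from the lysozyme M locus in both groups, which is active in macrophages and neutrophils, so tumor cells and lymphoid cells keep Dicer1. Age and sex of the mice and the number of animals per library are not given in the labels, so the spread reported here is that between libraries and may be in part technical.

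The libraries held 44566688 to 46986326 uniquely placed reads in the Dicer1-deleted group and 42974524 to 51152370 in the control group. Levels are given as CPM, uniquely placed reads scaled to library size with TMM factors, and fold changes as log2, Dicer1-deleted minus control, with the standard error (SE) of the edgeR fit. Dicer1 itself was at 7.85, 6.86 and 7.86 CPM in Dicer1-deleted libraries, against 15.7, 15.8, 18.6 and 17.1 CPM in control libraries (log2 fold change -1.16 ± 0.23, edgeR adjusted p = 0.150, DESeq2 adjusted p = 0.000133). The sorted cells expressed macrophage markers, with Csf1r averaging 664 CPM in Dicer1-deleted libraries and 629 CPM in controls. Of 8 macrophage markers Lyz2 alone was apart, at 50.7 to 67.2 CPM in Dicer1-deleted libraries and 103 to 212 CPM in controls. Over all tested genes the groups did not overlap in 9.31%, with 3.86% higher and 5.44% lower in Dicer1-deleted libraries. Lyz2 encodes lysozyme M, and Cre is expressed from this locus in both groups, so its level may not be that of an unaltered marker gene. Dicer1-deleted replicate 2 stood apart with the fewest genes listed (18888) and the lowest TMM factor (0.868), and the fold changes of Serpina3g, Serpina3f, Serpina3h, Serpinb6a and Serpinb9 are also given without it. Marker lists of 2 other cell types had a summed level that did not overlap between the groups. For B cells it was 112 to 152 CPM in Dicer1-deleted libraries and 35.1 to 71.4 CPM in controls, with 2 of 5 markers (Ighm and Cd79b) apart and Cd79a, another of the 5, at or under 0.083 CPM in Dicer1-deleted libraries and 0.365 CPM in controls. For endothelial cells it was 39.4 to 72.1 CPM in Dicer1-deleted libraries and 3.68 to 16.9 CPM in controls, with 1 of 4 markers (Pecam1, also a leukocyte gene) apart and Tek at or under 0.126 CPM in all libraries. Their part in the serpin differences was not tested, and in sorted bulk samples a different share of cells cannot be told apart from a different amount of RNA per cell.

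Serpina3g had the largest positive fold change of the 8 genes. It encodes the inhibitor known as Spi2A, which blocks lysosomal cathepsins that leak into the cytosol and is induced by interferon-gamma and NF-kB. Its level was 96.7, 102 and 49.9 CPM in the 3 Dicer1-deleted libraries, against 16.3, 18.4, 4.89 and 13.5 CPM in the 4 control libraries. The lowest Dicer1-deleted library was above the highest control library, and control replicate 3 was the lowest of all. The mean was 83.0 ± 28.8 CPM in Dicer1-deleted libraries and 13.3 ± 5.95 CPM in controls (SD, n = 3 and 4). The fitted log2 difference was 2.64 ± 0.45 (SE), or 2.45 when Dicer1-deleted replicate 2 was left out.

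Serpina3f, the nearest Serpina3 neighbour of Serpina3g on the centromeric side, had the same order of groups at a lower level. It was at 22.3, 10.98 and 11.95 CPM in Dicer1-deleted libraries, against 2.05, 6.73, 0.766 and 5.06 CPM in control libraries, again without overlap. Its log2 fold change was 2.05 ± 0.63 (SE); leaving out Dicer1-deleted replicate 2 gave 2.21. Control libraries varied 8.79-fold between the highest and the lowest for Serpina3f and 3.78-fold for Serpina3g, and control replicate 3 was the lowest for both.

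Serpina3h, annotated as a transcribed pseudogene next to Serpina3g on the other side, was close to the limit of these libraries. It was at 1.45, 0.559 and 0.854 CPM in Dicer1-deleted libraries, against 0.335, 0.494, 0.0729 and 0.0456 CPM in control libraries. The groups did not overlap, but the margin was small: Dicer1-deleted replicate 2 and control replicate 2 both held 22 reads, and the range over all libraries was 2 to 70 reads with both mates of a pair counted. Its log2 fold change was 2.01 ± 0.86 (SE), or 2.26 with Dicer1-deleted replicate 2 left out.

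Serpina3n, an acute-phase inhibitor of granzyme B and cathepsin G made by liver and astrocytes, was near 0 in both groups. It had 0.083, 0.305 and 0.0854 CPM in Dicer1-deleted libraries, against 0.0419, 0.0449, 0.182 and 0.365 CPM in control libraries, which is 2 to 16 reads per library. The groups overlapped, and the gene did not pass the filter on low counts, so it has no fold change in the fit. These few reads leave its level imprecise.

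**Figure D1:**
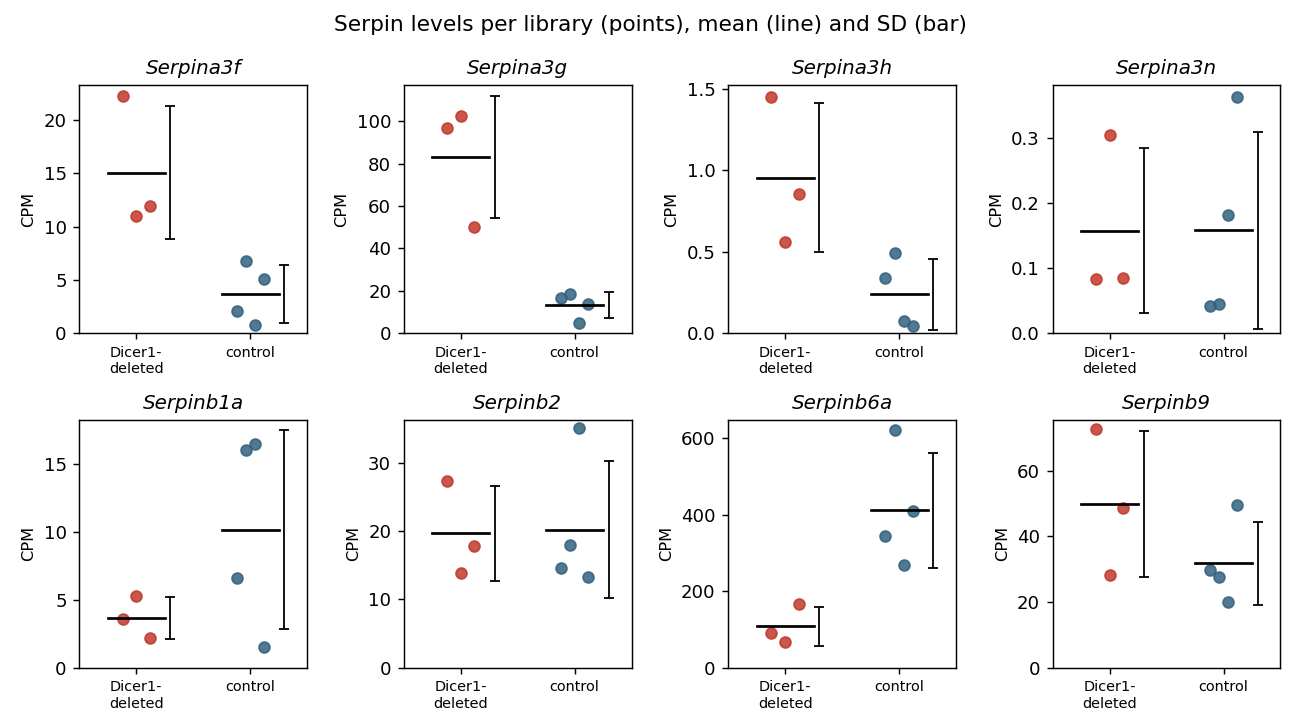
CPM of the 8 serpin genes in each library (points), with the mean (line) and SD (bar) of the Dicer1-deleted (n = 3, left) and control (n = 4, right) groups, each panel on its own linear axis. Serpina3f, Serpina3g and Serpina3h lay above all control libraries in each Dicer1-deleted library, Serpinb6a lay below them, and the groups overlapped for the other 4.

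The Serpina3 genes without overlap stand side by side in the reference genome. In the GRCm38 annotation (GENCODE M21) Serpina3f, Serpina3g, Serpina3h and Serpina3i follow each other on the plus strand of chromosome 12 from 104214544 to 104269372. Serpina3g itself (ENSMUSG00000041481) spans 104236245 to 104241939 and ends 446 kb from Dicer1. Serpina3i, a protein-coding gene outside the 8, was at 0.540, 0.407 and 0.256 CPM in Dicer1-deleted libraries, against 0.0839, 0.359, 0.0729 and 0.0912 CPM in control libraries. The groups overlapped in Serpina3i because of control replicate 2, and its log2 fold change of 1.39 ± 0.84 (SE) had an adjusted p of 0.819 in edgeR. On one side of this block the pseudogene Serpina3e-ps had 44 reads in the 3 Dicer1-deleted libraries together and 10 in the 4 control libraries, too few for the fit. On the other side Serpina3k, Serpina3l-ps and Serpina3m had at most 2 reads in either group, and Serpina3n, 273 kb from Dicer1, is given above.

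The makeup of the block overlapped between the groups. Serpina3g gave 80.0, 89.5 and 79.2% of the reads of Serpina3f, Serpina3g, Serpina3h and Serpina3i in Dicer1-deleted libraries, against 86.8, 70.9, 84.3 and 72.2% in control libraries. The ratio of Serpina3f to Serpina3g reads was 0.230, 0.107 and 0.240 in Dicer1-deleted libraries, against 0.126, 0.365, 0.157 and 0.375 in control libraries. For Serpina3g and for the ratio, each group held both higher and lower values than libraries of the other. The summed level of the 4 genes was 121, 114 and 62.9 CPM in Dicer1-deleted libraries, against 18.8, 26.0, 5.80 and 18.7 CPM in control libraries.

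**Figure D2:**
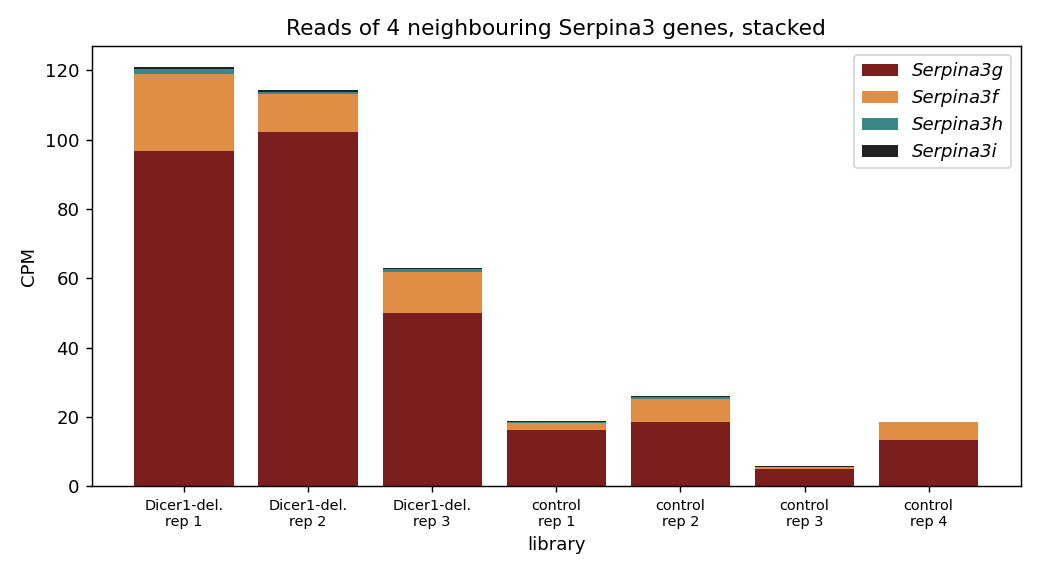
Stacked CPM of Serpina3g, Serpina3f, Serpina3h and Serpina3i (vertical axis) in each library, Dicer1-deleted replicates 1 to 3 on the left and control replicates 1 to 4 on the right. Serpina3g made up 79.2 to 89.5% of the bar in Dicer1-deleted and 70.9 to 86.8% in control libraries, and the shortest Dicer1-deleted bar (62.9 CPM) was taller than the tallest control bar (26.0 CPM).

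The Serpina3 genes are close copies, so shared reads were examined. Of all 50-base windows of its longest annotated transcript, 16.0% were found in a transcript of another gene for Serpina3g, 10.7% for Serpina3f, 24.4% for Serpina3h and 6.90% for Serpina3n. Serpina3h and Serpina3f shared the most windows with Serpina3g. In the deposited tables, fractional shares of multiply placed reads made up 6.05% of the expected count of Serpina3g and 2.62% of that of Serpina3f over all libraries. Such a read adds only a fraction to a gene, so the percentage of reads that were multiply placed can be higher. For Serpina3g these fractional shares made up 6.48, 5.14 and 7.13% in Dicer1-deleted libraries, against 5.12, 6.38, 4.78 and 5.71% in control libraries. With those fractional shares added, Serpina3g was at 101, 104 and 52.3 CPM in Dicer1-deleted libraries, against 16.7, 19.1, 5.00 and 13.9 CPM in control libraries. Its log2 fold change was then 2.65. Serpina3h, with the largest share of shared windows and the fewest reads of the tested members, has the least certain values among those tested.

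Promoter windows of the block are shown because Serpina3g, Serpina3f and Serpina3i sit beside each other with Serpina3n further along, at very different levels. RefSeq gives a window of 300 bases, 250 before and 50 after the start, for 6 of the 8 genes and for Serpina3i (GRCm38.p6). Windows were searched on both strands for TTCNNNGAA, the gamma-activated site (GAS) of interferon-gamma signalling, for the interferon-stimulated response element (ISRE) and for the NF-kB consensus. Capitals below mark matches to any of the 3 motifs.
Serpina3g (chr12:104235897-104236196, plus strand): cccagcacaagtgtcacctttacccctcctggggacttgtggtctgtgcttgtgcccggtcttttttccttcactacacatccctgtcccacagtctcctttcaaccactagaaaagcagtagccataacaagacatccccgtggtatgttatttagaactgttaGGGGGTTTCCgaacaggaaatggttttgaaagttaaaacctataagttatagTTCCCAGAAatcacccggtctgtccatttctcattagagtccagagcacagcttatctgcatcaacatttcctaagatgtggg
Serpina3f (chr12:104214294-104214593, plus strand): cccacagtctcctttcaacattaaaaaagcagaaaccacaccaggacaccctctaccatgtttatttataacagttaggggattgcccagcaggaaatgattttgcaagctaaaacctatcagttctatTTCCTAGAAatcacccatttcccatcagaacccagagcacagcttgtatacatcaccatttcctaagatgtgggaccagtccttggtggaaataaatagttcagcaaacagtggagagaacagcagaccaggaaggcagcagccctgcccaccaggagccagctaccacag
Serpina3i (chr12:104262872-104263171, plus strand): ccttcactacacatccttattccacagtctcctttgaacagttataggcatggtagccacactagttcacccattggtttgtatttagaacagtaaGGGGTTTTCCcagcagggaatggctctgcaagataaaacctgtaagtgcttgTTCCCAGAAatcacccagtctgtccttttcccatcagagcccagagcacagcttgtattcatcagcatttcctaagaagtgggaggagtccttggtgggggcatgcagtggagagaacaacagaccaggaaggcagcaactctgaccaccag
Serpina3n (chr12:104406458-104406757, plus strand): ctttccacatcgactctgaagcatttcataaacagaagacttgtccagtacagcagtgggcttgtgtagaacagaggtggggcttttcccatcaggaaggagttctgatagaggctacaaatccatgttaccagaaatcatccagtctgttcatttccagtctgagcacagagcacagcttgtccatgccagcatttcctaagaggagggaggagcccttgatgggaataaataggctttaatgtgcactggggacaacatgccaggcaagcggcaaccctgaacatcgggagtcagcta
The GAS match began 33 bases before the RefSeq start in Serpina3g, 121 before it in Serpina3f and 102 before it in Serpina3i. A further RefSeq window of Serpina3f, not shown, held the same match 210 bases before its start. The Serpina3g window ends at 104236196, before the GENCODE start at 104236245, so these distances depend on the annotation used. An NF-kB match stood upstream of the GAS match in Serpina3g and in Serpina3i, and none was in the Serpina3f windows. The Serpina3n window held none of the 3 motifs. Outside the Serpina3 genes, 1 of the 2 windows of Serpinb6a, the member lower in Dicer1-deleted libraries, held 2 GAS matches and 1 ISRE match, and both windows of Serpinb2, whose groups overlapped, held a GAS match. Of the 8 Serpina3 genes with a window, 3 had a GAS match and 2 had an NF-kB match. Of all 32851 windows, counted as windows and not as genes, 8.30% had a GAS match and 8.46% an NF-kB match. The 3 genes with a GAS match are neighbouring copies with similar windows, so their matches are not independent of each other. The windows of Serpina3g and Serpina3i were 80.5% identical over 236 aligned positions, those of Serpina3g and Serpina3f 79.0% over 214, and those of Serpina3g and Serpina3n 72.1% over 154. A match describes letters in the window and is not evidence of binding in these cells.

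Other genes near Dicer1 were compared in the same fit. Within 1 Mb of Dicer1, 24 other genes were listed and 11 passed the count filter, 4 of them Serpina3 genes. Of the 11 genes edgeR called 0 (an adjusted p under 0.05 over all genes, which 0.0247% of the 16226 tested genes passed, 0.00616% higher and 0.0185% lower in Dicer1-deleted libraries), with 3 at an unadjusted p under 0.05, against 8.01% of all genes. DESeq2 called 1, Serpina3g, against 2.19% of all genes (0.777% higher and 1.41% lower in Dicer1-deleted libraries). The 3 genes below 0.05 unadjusted were Serpina3f, Serpina3g and Serpina3h. These were chosen with this difference known, so the counts over the 11 genes describe that choice. Of the 7 neighbours that are no Serpina3 gene none was below 0.05 unadjusted in edgeR and DESeq2 called 0. Their median log2 fold change was 0.03, the same as over all tested genes. Among them only Serpina11 lies on the Serpina3 side of Dicer1, with a log2 fold change of -1.94 ± 1.26 (SE). Serpina11, Bdkrb1 and Scarna13 were near the floor, averaging 0.282, 0.250 and 0.897 CPM over all libraries. Syne3, a nuclear envelope protein, and Glrx5, a mitochondrial glutaredoxin, are the nearest tested coding genes on the far side of Dicer1. They had log2 fold changes of -0.52 ± 0.48 and 0.25 ± 0.37 (SE), with edgeR adjusted p-values of 0.984 and 0.996. The Dicer1-deleted mice carry the conditional allele and the controls the wild-type allele, and the strain origin of the surrounding sequence is not given. At this distance the loss of Dicer1 and sequence linked to the conditional allele cannot be told apart.

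**Figure D3:**
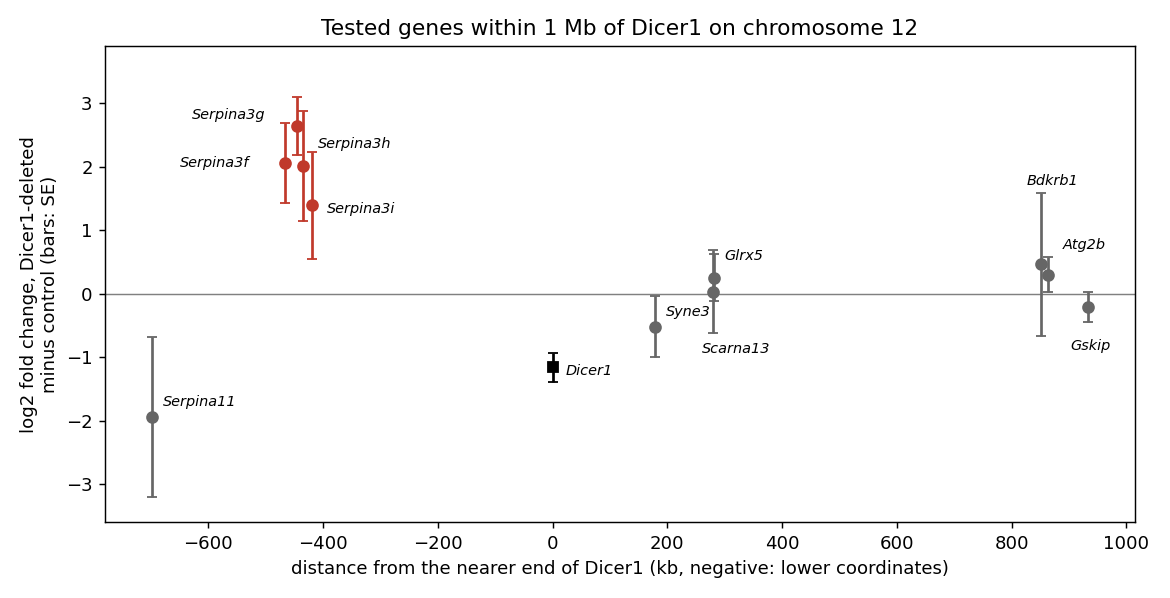
Log2 fold change (vertical axis, bars SE) of the 11 tested genes within 1 Mb of Dicer1 and of Dicer1 itself (square), against distance in kb from the nearer end of Dicer1. The 4 Serpina3 genes (red) lie at 1.39 to 2.64, the 6 genes on the other side of Dicer1 (grey) between -0.52 and 0.46, and Serpina11 on the Serpina3 side at -1.94.

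Among the clade B genes, Serpinb6a had the highest level and the opposite order of groups. It encodes an intracellular inhibitor of cathepsin G. Its level was 89.8, 67.6 and 166 CPM in Dicer1-deleted libraries, against 346, 620.1, 268 and 411 CPM in control libraries. Every Dicer1-deleted library was below every control library, with control replicate 2 the highest. The mean was 108 ± 51.8 CPM in Dicer1-deleted libraries and 411 ± 151 CPM in controls (SD, n = 3 and 4). The fitted log2 difference was -1.93 ± 0.42 (SE), or -1.68 when Dicer1-deleted replicate 2 was left out. Serpinb6a lies on chromosome 13 at 33917918 to 34002794 on the minus strand and overlaps Ripk1 and Nqo2 on the opposite strand, which were at 20.2 and 68.4 CPM on average over the 7 libraries. The library kit keeps no strand, so reads of overlapping parts are not separated. Fractional shares of multiply placed reads made up 4.71% of the expected count of Serpinb6a.

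Serpinb9, the granzyme B inhibitor with which cytotoxic and antigen-presenting cells protect themselves, overlapped between the groups. It was at 72.9, 28.3 and 48.5 CPM in Dicer1-deleted libraries, against 29.9, 27.7, 19.9 and 49.6 CPM in control libraries. Dicer1-deleted replicate 1 was the highest and Dicer1-deleted replicates 2 and 3 lay within the range of the controls. Its log2 fold change was 0.65 ± 0.39 (SE); leaving out Dicer1-deleted replicate 1 gave 0.27, and leaving out replicate 2 gave 0.92. Its promoter window held 1 ISRE match, a motif in 3.44% of all windows, and no GAS match.

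Serpinb1a, an inhibitor of neutrophil elastase, cathepsin G and proteinase 3, varied most among the control libraries of the clade B members. It was at 3.57, 5.28 and 2.18 CPM in Dicer1-deleted libraries, against 6.62, 16.0, 16.5 and 1.55 CPM in control libraries. Control replicate 4 was the lowest of all libraries, 10.6-fold under control replicate 3, so the groups overlapped. The log2 fold change was -1.47 ± 0.71 (SE). The neutrophil markers summed to 50.9 to 103 CPM in Dicer1-deleted libraries and 32.3 to 81.2 CPM in controls. All 4 tested markers had a positive log2 fold change, with a median of 0.73, and 1 of them, Csf3r, did not overlap (22.8 to 32.0 CPM in Dicer1-deleted libraries and 11.1 to 22.1 CPM in controls). Of all tested genes 3.86% were higher in Dicer1-deleted libraries without overlap. Ly6g was at 0 in all libraries but Dicer1-deleted replicate 2, at 0.102 CPM. Their part in the Serpinb1a values was not tested.

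Serpinb2, the plasminogen activator inhibitor type 2 of activated macrophages, had similar means in both groups. It was at 27.4, 13.9 and 17.8 CPM in Dicer1-deleted libraries, against 14.6, 18.0, 35.1 and 13.3 CPM in control libraries. Control replicate 3 was the highest of all 7 libraries and was the lowest for Serpina3f and Serpina3g. The log2 fold change was -0.04 ± 0.40 (SE), which leaves room for a difference of either sign.

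Levels of different genes were compared with the deposited RPKM, which is scaled to gene length and library size. The gene lengths used for it are not given, and the order of genes depends on them. In CPM, not scaled to length, Serpinb6a averaged 108 and Serpina3g 83.0 in Dicer1-deleted libraries, the reverse of their RPKM order. In Dicer1-deleted libraries Serpina3g had the highest mean of the 8, at 33.7 ± 10.3 RPKM (SD, n = 3), although in replicate 3 it was at 22.2 RPKM and Serpinb6a at 31.5 RPKM. It was followed by Serpinb6a at 19.5 ± 10.8, Serpinb9 at 13.95 ± 7.04, Serpinb2 at 8.12 ± 3.37, Serpina3f at 6.36 ± 2.99 and Serpinb1a at 1.76 ± 0.570 RPKM. In control libraries Serpinb6a was the highest, at 74.4 ± 23.9 RPKM (SD, n = 4). It was followed by Serpinb9 at 8.98 ± 3.58, Serpinb2 at 8.63 ± 4.70, Serpina3g at 5.62 ± 2.37, Serpinb1a at 5.18 ± 3.77 and Serpina3f at 1.54 ± 1.12 RPKM. The order from Serpinb9 to Serpinb1a in control libraries lay within the spread between libraries, while Serpinb6a was above all of them in every control library. Serpina3h and Serpina3n were under 1 RPKM in every library.

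Of the 8 genes, 7 passed the count filter. Of these edgeR called 0 (0.0247% of all genes), with 4 at an unadjusted p under 0.05 (8.01% of all genes), and DESeq2 called 2, Serpina3g and Serpinb6a (2.19% of all genes). No overlap between groups was seen in 4 of the 7, against 9.31% of all tested genes. Since these genes were chosen with this difference known, the counts describe the choice. The sample titles carry an L4 or L5 code whose meaning the labels do not give. Among L5 libraries (1 Dicer1-deleted and 3 control) the log2 fold changes of Serpina3g, Serpina3f and Serpinb6a were 3.03, 3.05 and -1.96. Among L4 libraries (2 Dicer1-deleted and 1 control) they were 2.04, 0.76 and -2.41.

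In the wider serpin family edgeR made no call either. Of 42 serpins listed, 25 were tested and edgeR called 0, with 11 at an unadjusted p under 0.05, against 8.01% of all genes. DESeq2 called 4, against 2.19% of all genes, of which 1 was higher (Serpina3g) and 3 lower, among them Serpinb6a and Serpind1, in Dicer1-deleted libraries. The 25 include the 7 tested genes of the 8, chosen with this difference known. Those 7 gave 4 of the 11 genes under 0.05 unadjusted and 2 of the 4 DESeq2 calls. Among the 18 outside the 8, 7 were under 0.05 unadjusted and DESeq2 called 2. Of the 18 tested serpins outside the 8, 12 had a negative log2 fold change, and the median was -0.72, against 0.03 over all tested genes. Over all 25 tested serpins the median was -0.33. The 18 include genes near the floor, which can pass the count filter through the group where they are higher. Serpinb5 was at 0 in all Dicer1-deleted libraries and at up to 0.461 CPM in controls. Serpina11 and Serpinb6c averaged 0.106 and 0.206 CPM in Dicer1-deleted libraries and 0.415 and 0.527 CPM in controls. Serpina3i, the other way, averaged 0.401 and 0.152 CPM. How far this shapes the counts for the 18 was not tested. Serpinb8 was at 69.0, 22.9 and 70.5 CPM in Dicer1-deleted libraries, against 147, 109, 183 and 81.8 CPM in control libraries. Its log2 fold change was -1.27 ± 0.44 (SE, adjusted p = 0.431 in edgeR and 0.135 in DESeq2). Serpinb6b, a paralogue of Serpinb6a, was at 10.2, 7.83 and 7.81 CPM in Dicer1-deleted libraries, against 20.2, 10.5, 13.7 and 12.4 CPM in control libraries. Neither Serpinb8 nor Serpinb6b overlapped between the groups, and the edgeR adjusted p of Serpinb6b was 0.562. Serpind1, heparin cofactor II, averaged 1.21 ± 0.383 CPM in Dicer1-deleted libraries and 5.85 ± 3.94 CPM in controls (SD, n = 3 and 4), overlapped between groups, and lies within Pi4ka on the opposite strand (adjusted p = 0.361 in edgeR and 0.0464 in DESeq2). Serpinf1, a serpin without inhibitory activity, averaged 5.97 ± 3.44 CPM in Dicer1-deleted libraries and 2.95 ± 0.611 CPM in controls, with an edgeR adjusted p of 0.586. In this family 6 of the 18 genes outside the 8 were lower without overlap and 0 higher, where 5.44% and 3.86% of all tested genes were.

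**Figure D4:**
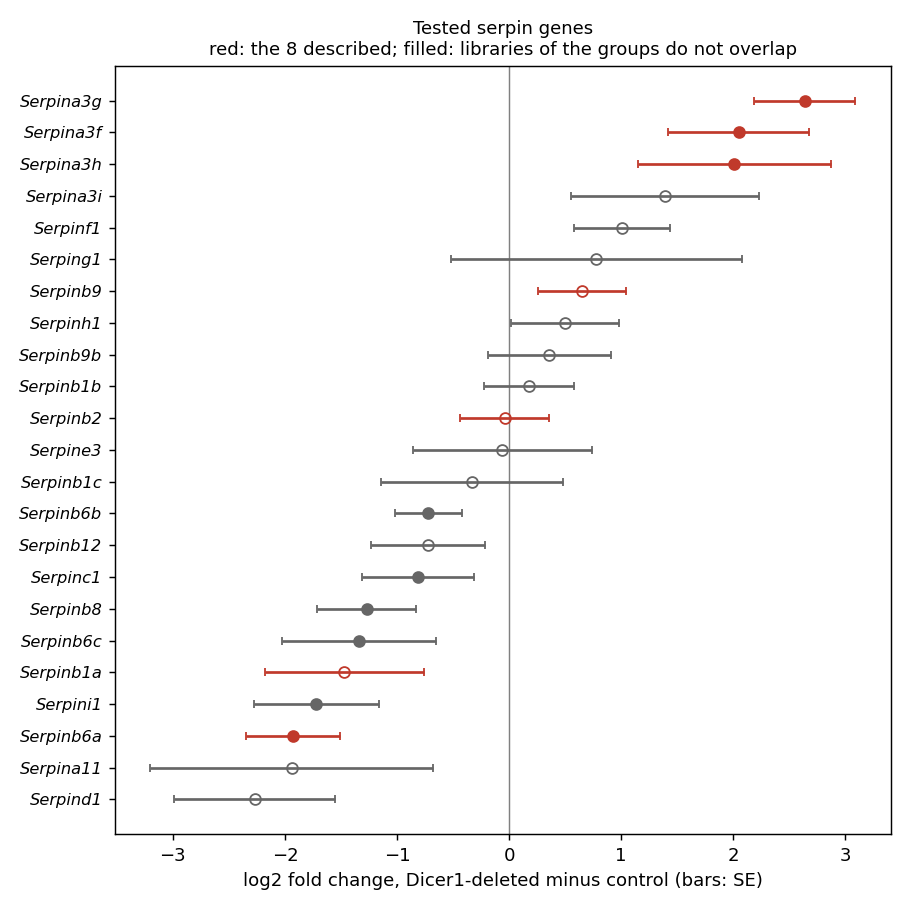
Log2 fold change (horizontal axis, bars SE) of tested serpins, from the highest at the top to the lowest. Red marks the 8 genes described here as far as tested, and filled points mark genes whose groups did not overlap. Serpina3g, at 2.64, is the highest, and Serpinb5, at 0 in all Dicer1-deleted libraries, and another serpin are left out.

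Fixed lists that hold target proteases of these serpins, along with related genes, were followed in the same fit. Not every gene in them is a protease or a known target. Of the 10 cysteine cathepsins edgeR called 0, against 0.0247% of all genes. DESeq2 called 1 in each direction, against 0.777% of all genes higher and 1.41% lower in Dicer1-deleted libraries. Ctsb, Ctss, Ctsc and Ctsl, the most abundant, had log2 fold changes of -0.09, -0.29, 0.42 and -0.26 and edgeR adjusted p-values of 0.927 to 0.996. Cathepsin H (Ctsh) averaged 822 CPM in Dicer1-deleted libraries and 441 CPM in controls. Cathepsin K (Ctsk) averaged 96.5 CPM in Dicer1-deleted libraries and 1769 CPM in controls. In edgeR their adjusted p-values were 0.313 and 0.162, and in DESeq2 0.0288 and 2.24e-06, and neither gene overlapped between the groups. Granzymes were near 0: the 10 genes of granzymes and perforin summed to 2.09 to 7.97 CPM in Dicer1-deleted libraries and 0.545 to 1.64 CPM in controls. Granzyme B (Gzmb), the target of Serpinb9, averaged 2.17 CPM in Dicer1-deleted libraries and 0.379 CPM in controls (edgeR adjusted p = 0.367), and Prf1, perforin, 0.897 and 0.214 CPM (edgeR adjusted p = 0.716). Gzmm and Gzma, at most 0.426 CPM on average in either group, were not tested. The neutrophil proteases Elane and Prtn3 did not exceed 1.39 CPM in any library. Cathepsin G (Ctsg), the third gene of that list, was not among the genes listed in the deposited tables. In the plasminogen system edgeR called 0 of 6 tested genes, against 0.0247% of all genes. DESeq2 called 1 of the 6, against 2.19% of all genes. This was Anxa2, a plasminogen-binding annexin, lower in Dicer1-deleted libraries (2262 against 4337 CPM in control libraries, DESeq2 adjusted p = 0.00733). S100a10, Plaur and Plgrkt had log2 fold changes of -0.58, -0.22 and 0.38 and overlapped between the groups. Plau, the urokinase that Serpinb2 inhibits, named here after its values were seen, averaged 80.5 CPM in Dicer1-deleted libraries and 82.0 CPM in controls.

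Other protease inhibitors were split. Of 10 tested genes edgeR called 0, against 0.0247% of all genes, and DESeq2 called 1 higher and 2 lower in Dicer1-deleted libraries. Of all genes DESeq2 called 0.777% higher and 1.41% lower. In log2 fold change 5 of the 10 lay above and 5 below 0, and the median was -0.25. The Kunitz inhibitor Spint1 was at 31.5, 98.0 and 30.7 CPM in Dicer1-deleted libraries, replicate 2 the highest, and at 6.20 to 10.8 CPM in controls (edgeR adjusted p = 0.111, DESeq2 adjusted p = 1.78e-05). The metalloproteinase inhibitors Timp1 and Timp2 averaged 8.62 and 63.9 CPM in Dicer1-deleted libraries, against 24.6 and 176 CPM in control libraries (edgeR adjusted p = 0.156 and 0.199, DESeq2 adjusted p = 0.00251 and 0.00463). The abundant cystatins Cstb and Cst3 had log2 fold changes of 0.16 and -0.67, and Wfdc17, of the whey acidic protein family, -0.87, all with overlapping groups. Slpi, of the same family, was at 78.1, 559 and 55.5 CPM in Dicer1-deleted libraries and 50.3 to 72.6 CPM in controls, so its log2 fold change of 1.97 rests on Dicer1-deleted replicate 2.

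Interferon-gamma and NF-kB signalling, known to induce Serpina3g, was followed as a list of 15 genes. All 15 were tested and edgeR called 0, against 0.0247% of all genes. In 13 of them the log2 fold change was above 0, with a median of 0.24 against 0.03 over all genes. Irf1 ranged over 243 to 425 CPM in Dicer1-deleted libraries and 111 to 313 CPM in controls (log2 difference 0.75 ± 0.39 SE, edgeR adjusted p = 0.734). DESeq2 called 1 of the 15, against 2.19% of all genes. This was Irf8, a transcription factor of myeloid cells, which averaged 81.6 CPM in Dicer1-deleted libraries and 33.7 CPM in controls. Its adjusted p was 0.0131 in DESeq2 and 0.207 in edgeR. Nfkbia and Ifngr1, the most abundant of the list, had log2 fold changes of 0.24 and -0.15.

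Genes with the profile most like Serpina3g were sought among 9980 genes with a mean of at least 5 CPM. The measure was the root mean square difference of log2 CPM over the 7 libraries, each profile centred on its mean. The closest were Calhm6 (0.361), Treml4 (0.431), Gpr18 (0.550), Siglece (0.592) and Gbp8 (0.599). Calhm6 was at 10.05, 14.2 and 9.65 CPM in Dicer1-deleted libraries, against 1.97, 2.33, 0.984 and 2.60 CPM in control libraries, with control replicate 3 the lowest as for Serpina3g. Of the other serpins described here Serpina3f was the closest, at 0.656, with 8 of the 9980 genes closer. Serpina3g and Serpina3f were chosen with the group difference known, and this difference enters the measure. All 5 closest genes were likewise higher in Dicer1-deleted libraries without overlap, so these ranks describe the choice and do not test shared regulation. Serpinb9 was at 1.253 and Serpinb6a at 2.445.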

How the data were processed

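RNA of 7 libraries was counted per gene. Per the labels' protocols, SMARTer-amplified cDNA went into Nextera XT libraries, which keep no strand, for paired-end sequencing. The submitters' processing notes name Bowtie2. For the counting tool, build and annotation: not given in the sources used here. Per the file headers the authors deposited counts of uniquely placed reads, expected counts that add fractional shares of multiply placed reads, and RPKM. Unique counts were all even, so both mates were counted, and 31124 unlisted values were set to 0. Symbols came from GENCODE M21 (GRCm38) for 21798 of 24084 IDs.

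Unique counts were tested in edgeR 4.0.16 (filterByExpr, TMM, quasi-likelihood F test, Benjamini-Hochberg over 16226 genes at 0.05). DESeq2 1.42.0, limma-voom 3.58.1, other scalings and filters, read pairs, expected counts rounded to whole numbers, the L code and each library left out were alternatives. The biological coefficient of variation was 45.1%, so the spread between libraries limits precision more than depth, and reads without molecular identifiers are not independent molecules. The 8 genes, the lists and the rule for named genes (the 8, serpins of at least 5 CPM or called, the 2 nearest coding neighbours of Dicer1 per side, up to 4 most abundant genes per list plus called ones) were chosen with earlier results of these data known. Of the marker lists not named in the report, none separated the groups by its summed level: T and NK cells 7.42 to 14.2 CPM in Dicer1-deleted and 5.40 to 7.92 CPM in control libraries, dendritic cells 5.34 to 12.2 and 5.61 to 114 CPM, mast cells and basophils 0.152 to 2.73 and 0.718 to 3.14 CPM, fibroblasts 13.6 to 25.4 and 12.8 to 28.0 CPM, and epithelial or carcinoma cells 5.59 to 9.09 and 1.75 to 13.2 CPM, in the same order of groups. Single markers in them did stand apart: Nkg7, Cd3g and Trbc2 of the T and NK cell list and Xcr1 (2.64 to 5.51 CPM in Dicer1-deleted and 0.474 to 1.50 CPM in control libraries) and Clec9a of the dendritic cell list were higher in Dicer1-deleted libraries without overlap, and Krt18 of the epithelial list was lower. Of all tested genes 3.86% were higher and 5.44% lower in Dicer1-deleted libraries without overlap. DESeq2 gave Xcr1 an adjusted p of 0.000785 and Nkg7 0.0429, and the sum of the dendritic cell list is carried by Cd209a, at up to 109 CPM in a control library. Some genes that meet the naming rule are not reported here.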

Additional observations from a re-analysis of the deposited data

How the results depend on the processing

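No paired analysis was possible because the labels give no replicate numbers that groups share. Of 18 alternatives, the log2 fold changes of Serpina3g (2.04 to 3.03), Serpina3f (0.76 to 3.05), Serpina3h (0.51 to 3.20), Serpinb9 (0.27 to 1.10), Serpinb6a (-2.41 to -1.65) and Serpinb1a (-2.11 to -1.10) kept their sign in each that gave a value; the filter of 10 CPM in 3 libraries left out Serpina3f, Serpina3h and Serpinb1a. Serpinb2, at -0.04, turned positive with the L code as covariate (0.12), in L5 libraries alone (0.36) and in limma-voom (0.01), and ranged from -0.36 to 0.37 with each library left out. Serpina3g passed the threshold with no count filter and in DESeq2, and Serpinb6a in DESeq2. Calls over all genes numbered 4 in edgeR, 397 in DESeq2, 42 with no count filter, 21 in L4 libraries alone, 2 in limma-voom, 1 with the 10 CPM filter, 0 with the L code as covariate and 0 in L5 libraries alone, and ranged from 0 to 3 with each library left out. Calls among serpins numbered 4 in DESeq2 and 1 with no count filter, and near Dicer1 1 in each of these, against 0 in edgeR. The median over tested serpins was -0.33, and ranged from -0.83 to 0.09 with each library left out, turning positive without Dicer1-deleted replicate 2 (0.02) or control replicate 3 (0.09). The cause of these changes was not tested. Depth limits Serpina3h and Serpina3n, with 2 to 70 and 2 to 16 reads per library.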
